A study of Danio rerio with 4 samples.

Results

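This account describes 43 genes of the cell cycle and DNA replication in cells sorted from zebrafish embryos. The genes were listed by symbol, and 41 of the 43 symbols were matched to 43 gene IDs of the 25873 in the deposited table. By role, the matched IDs were 21 of DNA replication, 5 of G1/S cyclins and kinases, 15 of mitosis and 2 of cyclin-dependent kinase inhibitors. A single ID carried the name of 38 symbols. The symbols mcm6 and rrm2 each named 2 IDs, and both IDs of each were kept. The symbol birc5a was matched to the only ID named BIRC5. For ccnd2a and cdkn1ba the names CCND2 and CDKN1B each belonged to 2 IDs that could not be assigned to a paralogue, so those 4 IDs are described but left out of every count.

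All embryos carried the transgene Tg(nkx2.5:ZsYellow), which marks with a yellow fluorescent protein the cells where control regions of nkx2.5, a homeobox gene of heart and pharyngeal mesoderm, are active. They were of a laboratory strain and were taken at 14 to 16 somites. The positive group held the ZsYellow-positive cells, which the labels call cardiopharyngeal progenitors together with cardiomyocytes. The negative group held the ZsYellow-negative cells of those embryos, so it can hold any tissue without the reporter. Each group had 2 libraries of polyadenylated RNA, and the labels name no further treatment or allele.

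The MCM proteins form the ring-shaped helicase that is loaded at replication origins in G1 and unwinds DNA in S phase, once CDC45 and the GINS proteins have joined it. Cyclin D and cyclin E with their kinases drive entry into S phase, and cyclins A and B with CDK1 drive entry into mitosis. Inhibitors of the Cip/Kip family bind these kinases and slow or stop the cycle. Zebrafish cardiomyocytes are known to divide little while the heart tube forms, and further cells are added later from progenitors.

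Library totals ran from 31996733 to 40133331 counts, and the number of gene IDs with a count ran from 22529 to 23090 per library. Markers of the cells that the labels name were mostly higher in positive cells. Of the 59 marker symbols listed, 8 could not be assigned to an ID and were left out. In positive cells 8 of 8 cardiopharyngeal IDs, 6 of 7 sarcomere IDs and 6 of 6 endothelial IDs were called higher. The cardiopharyngeal list holds nkx2.5, whose reporter defined the sort. The remaining sarcomere ID, named myh6 (ENSDARG00000114031), was scarce, with 13 to 67 counts per library, and was called lower. The labels do not name endothelial cells. Lower in positive cells were 5 of 5 erythroid IDs, 8 of 9 somite and presomitic IDs and 7 of 7 neural IDs. Summed over each list, erythroid markers stood at 59.0 and 61.5 CPM (counts scaled to 1000000 per library) in positive and 765 to 785 CPM in negative libraries, somite markers at 205 to 304 against 1403 to 1474 CPM, and neural markers at 426 to 485 against 1162 to 1241 CPM. Of the epidermal IDs 1 of 6 was called higher (krt8) and 1 lower (krt4), and 3 of 5 germ cell IDs were called lower. Epidermal markers stood at 2258 to 2834 against 2225 to 2616 CPM and germ cell markers at 4.22 to 7.45 against 9.64 to 16.4 CPM. Cardiopharyngeal markers summed to 1600 to 1671 against 223 to 228 CPM, and endothelial markers to 941 to 1304 against 311 to 386 CPM. No ID of these lists was at 0 in any library. The part of these tissues in the differences described here was not tested. In bulk RNA, fewer cells that express a gene and less RNA per cell cannot be told apart, nor can fewer dividing cells and a different time spent in each phase.

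Most replication and G1/S genes had lower estimates in positive than in negative cells, a few of which passed the test, and the estimates of mitotic genes lay around 0. The difference between these classes was not itself tested. Of the 43 IDs, 6 were called lower in positive cells at an edgeR adjusted p under 0.05 and 0 were called higher. Of all 19084 genes tested, 8.07% were called lower and 9.02% higher. The 6 were the replication genes pcna and gins2, the cyclins ccnd1, ccne1 and ccne2, and the inhibitor cdkn1ca. At an unadjusted p under 0.05 there were 18 member IDs, and each of these was lower. Of the unassigned IDs, which are not counted here, ENSDARG00000051748 (CCND2) was lower at that level and ENSDARG00000029018 (CDKN1B) was higher. Of all 19084 genes tested, 5760 had an unadjusted p under 0.05, and 2762 of these were lower. The DESeq2 Wald test called 0 of the 43 member IDs higher too, and limma on log2(TPM + 1) did the same. Every one of the 43 IDs passed the filter on low counts.

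**Figure D1:**
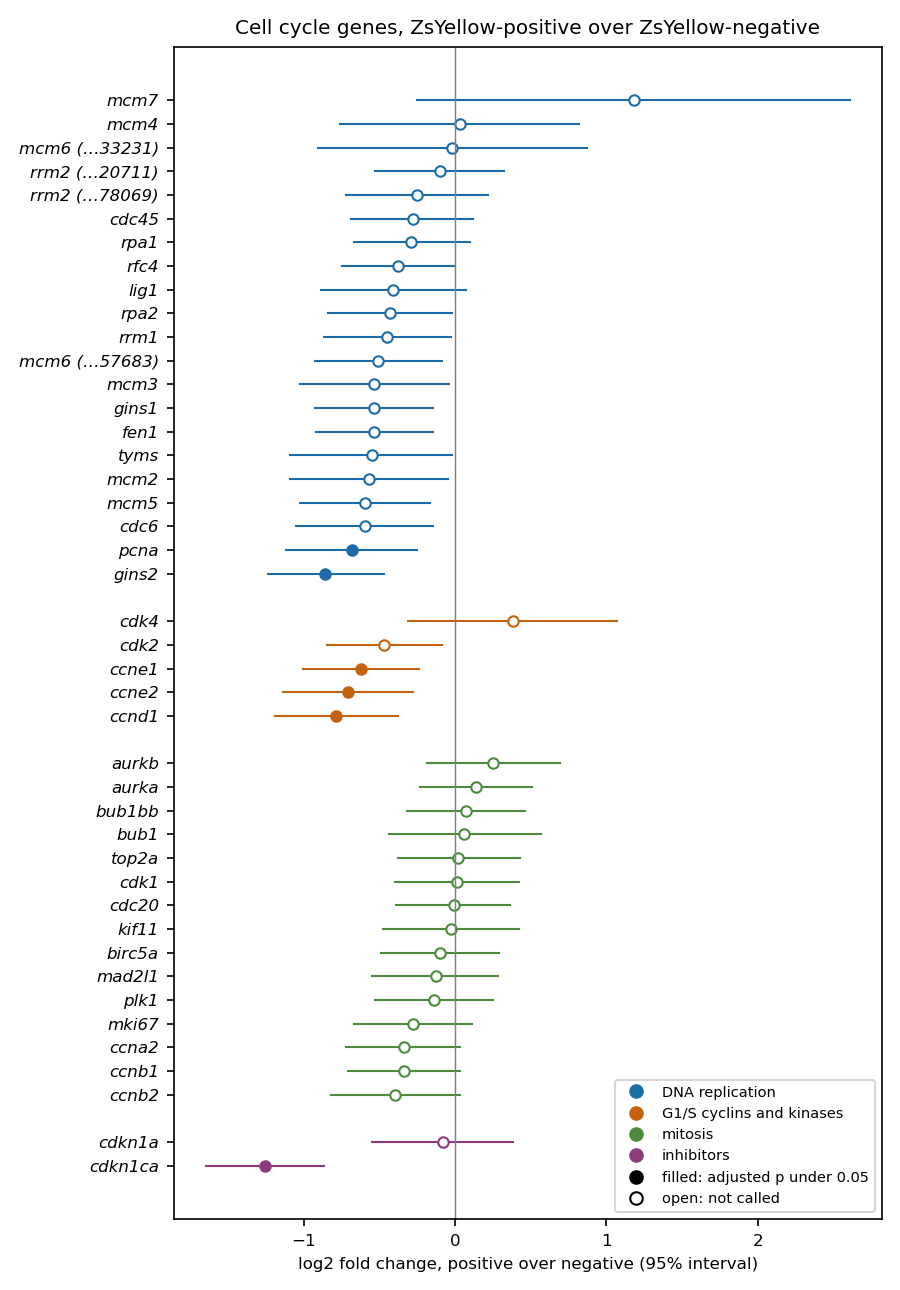
Log2 fold change of each matched gene ID, positive over negative cells, with its 95% interval, grouped by role. Filled points passed an adjusted p under 0.05. Replication and G1/S genes lie mostly left of 0, mitotic genes lie around 0, and mcm7 has the widest interval.

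The 21 replication IDs had a median log2 fold change of -0.45, which is 73.4% of the negative level, against a median of -0.01 over all genes tested. The fold change was below 0 for 19 of the 21. For 16 of the 21, each positive library was under each negative one, an arrangement found in 30.3% of all genes tested. The adjusted test called 2 of the 21, a share close to that of all genes called lower. Which replication IDs were called depended on the library left out, and many calls over all genes tested were also lost without either negative library. With each library left out in turn, the log2 change ran from -0.80 to -0.55 for pcna and from -0.92 to -0.77 for gins2. With 1 library left in a group, the spread is taken from the other pair, and that library is assumed to vary alike.

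The clamp gene pcna, whose protein holds polymerases on DNA, was the most abundant of the replication genes per transcript length. It had 936 and 772 CPM in the positive libraries and 1309 and 1431 CPM in the negative libraries. Both positive values were under both negative ones, and the log2 change was -0.68 (95% interval -1.12 to -0.25, edgeR adjusted p 0.0400, SE 0.19). The change ran from -0.80 to -0.55 over the alternatives, and the call was lost without positive replicate 2 (-0.55), negative replicate 1 (-0.75) or negative replicate 2 (-0.61). In TPM, which is scaled by transcript length, pcna stood at 811 ± 61.8 in positive and 1320 ± 32.7 in negative cells (SD, n = 2 each).

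The gene gins2, which encodes a subunit of the GINS complex of the active helicase, had the largest decrease among the replication genes. Its values were 44.7 and 39.3 CPM in positive and 73.0 and 79.1 CPM in negative libraries. The groups did not overlap, and the log2 change was -0.86 (edgeR adjusted p 0.00859, SE 0.17), or 55.2% of the negative level. It was called in each alternative fit except the one without negative replicate 2 (-0.79). Another subunit gene, gins1, had 32.8 and 32.9 CPM against 44.1 and 51.5 CPM, with a log2 fold change of -0.54 that did not pass (edgeR adjusted p 0.0637). Upper-quartile scaling gave -0.64 and a call for gins1.

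Among the 6 subunits of the MCM ring, mcm2, mcm3, mcm5 and the abundant mcm6 ID (ENSDARG00000057683) were alike. Their log2 fold changes were -0.57, -0.54, -0.60 and -0.51, each positive library lay below each negative one in each, and none passed the adjusted test (edgeR adjusted p 0.130, 0.135, 0.0636 and 0.0977). For mcm5 the libraries had 254 and 221 CPM in positive and 402 and 318 CPM in negative cells. The mcm2 values were 384 and 370 CPM against 684 and 436 CPM, so much of the spread lay between the negative libraries. The gene mcm5 was called without positive replicate 1 (-0.68), with upper-quartile scaling (-0.70), by the DESeq2 Wald test (-0.59) and with the trend on transcript length removed (-0.63). That last setting also called mcm2 (-0.76) and this mcm6 ID (-0.60). The other mcm6 ID (ENSDARG00000033231) had 46 to 74 counts per library and a log2 fold change of -0.02. Reads of similar genes can be divided between IDs, so the levels of IDs that share a name are uncertain.

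The remaining subunits mcm4 and mcm7 differed between the positive libraries. For mcm7 the positive libraries had 234 and 37.8 CPM and the negative libraries 71.1 and 48.6 CPM. Positive replicate 1 stood above every other library and positive replicate 2 below every other. The ratio of the positive replicates was 6.18, and 0.142% of the 9173 genes with a mean of at least 10 CPM had replicates that far apart. The log2 change of 1.18 (95% interval -0.25 to 2.61, edgeR adjusted p 0.254) therefore rests on 1 library. It was 1.97 and called higher without positive replicate 2, and -0.64 and called lower without positive replicate 1 (edgeR adjusted p 0.0379).

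The gene mcm4 showed a smaller split of the same kind, with 211 and 85.3 CPM in positive and 155 and 136 CPM in negative libraries. The ratio of the positive replicates was 2.48, which 1.77% of genes of at least 10 CPM reached. Its log2 fold change was 0.03 over all libraries (edgeR adjusted p 0.966), -0.74 and called without positive replicate 1 and 0.54 without positive replicate 2. In TPM, mcm7 was 1.89 times mcm5 in positive replicate 1 and 0.284 to 0.363 times mcm5 in the other 3 libraries. The ratio of mcm4 to mcm5 was 0.715 in positive replicate 1 and 0.330 to 0.367 elsewhere. For the main IDs of the other 4 subunits the positive replicates differed by a ratio of 1.04 to 1.15. The cause was not tested.

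**Figure D2:**
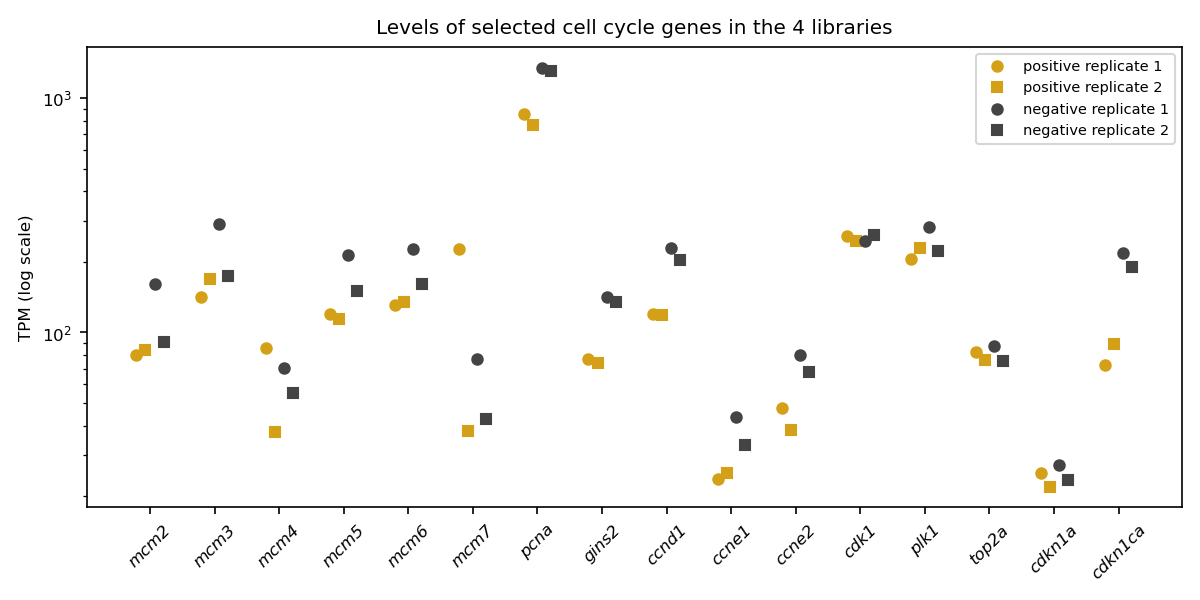
TPM on a log scale of 16 genes in the 4 libraries, with gold symbols for positive and dark symbols for negative libraries. The mcm6 value is that of its abundant ID. Both positive libraries lie below both negative ones for pcna, gins2, ccnd1, ccne1, ccne2 and cdkn1ca, while mcm7 and mcm4 are highest in positive replicate 1.

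Loading and firing of the helicase also need CDC6, which helps load the MCM ring, and CDC45. The gene cdc6 had 93.0 and 68.2 CPM in positive and 130 and 114 CPM in negative libraries, without overlap, and a log2 change of -0.60 (edgeR adjusted p 0.0709). It was called without positive replicate 1 (-0.82), with upper-quartile scaling (-0.70) and by the DESeq2 Wald test (-0.59). For cdc45 the change was -0.28 (95% interval -0.69 to 0.12, edgeR adjusted p 0.335).

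Of rfc4, rpa1, rpa2, fen1 and lig1, which act with pcna in DNA synthesis at the fork, none passed. The clamp loader gene rfc4 had 98.7 and 93.9 CPM against 124 and 126 CPM, a log2 change of -0.38 (edgeR adjusted p 0.153). Of the genes for the single-strand binding protein RPA, rpa1 had -0.29 and rpa2 -0.43 (edgeR adjusted p 0.305 and 0.150). The groups did not overlap in any of these. The flap endonuclease gene fen1, which acts on lagging-strand fragments, had 237 and 232 CPM against 326 and 354 CPM. Its log2 change was -0.54 (edgeR adjusted p 0.0615), and it was called by limma on log2(TPM + 1) at -0.56 (limma adjusted p 0.0491), by the DESeq2 Wald test (-0.52) and with upper-quartile scaling (-0.64). The ligase gene lig1 had -0.41 (edgeR adjusted p 0.232), with positive replicate 1 at 238 CPM close to negative replicate 1 at 241 CPM.

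None of the member genes for the supply of deoxynucleotides passed, while tk1 and dhfr of the wider lists, described below, were called lower. The large subunit gene of ribonucleotide reductase, rrm1, had 269 and 244 CPM against 388 and 311 CPM and a log2 change of -0.45 (edgeR adjusted p 0.142). Of the small subunit, the ID ENSDARG00000078069 named rrm2 was among the most abundant members, with 1009 and 898 CPM in positive and 968 and 1299 CPM in negative libraries. Its groups overlapped and the change was -0.25 (edgeR adjusted p 0.471). The other rrm2 ID (ENSDARG00000020711) overlapped as well, at -0.10 (95% interval -0.53 to 0.32). The thymidylate synthase gene tyms had 26.7 and 17.4 CPM against 29.4 and 35.3 CPM and a change of -0.55 (edgeR adjusted p 0.149). It was called at -0.86 without positive replicate 1, the library in which it was higher.

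The 3 assigned cyclins of the G1/S transition, ccnd1, ccne1 and ccne2, were called lower in positive cells. Of the 5 IDs of G1/S cyclins and kinases, 3 were called lower and 0 higher, and the median log2 fold change was -0.62. Over all genes tested, 8.07% were called lower and 9.02% higher. Cyclin D1, ccnd1, had 431 and 380 CPM in the positive libraries and 688 and 710 CPM in the negative ones. The groups did not overlap, and the log2 change was -0.79 (edgeR adjusted p 0.0159, SE 0.18), or 58.0% of the negative level.

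Both cyclin E genes were called lower. The gene ccne1 had 42.98 and 41.80 CPM against 69.9 and 60.5 CPM, with a log2 change of -0.62 (edgeR adjusted p 0.0355, SE 0.17). The gene ccne2 had 83.0 and 62.3 CPM against 121 and 117 CPM, with a log2 change of -0.71 (edgeR adjusted p 0.0315, SE 0.19). Neither had overlapping groups. The 3 cyclin calls were lost without negative replicate 1 (ccnd1 -0.81, ccne1 -0.52 and ccne2 -0.69) and without negative replicate 2 (ccnd1 -0.75, ccne1 -0.71 and ccne2 -0.73). Without positive replicate 2 only ccnd1 was called, and ccne1 was at -0.60 and ccne2 at -0.52. With the replicate number as a block, ccne1 was at -0.62 and not called (edgeR adjusted p 0.0561). Neither limma fit called ccne1 (-0.62 with 1 added to TPM and -0.64 with 0.1 added).

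The kinase genes of this transition did not pass. The partner of cyclin E, cdk2, had 93.0 and 85.3 CPM against 129 and 118 CPM, without overlap, and a log2 change of -0.47 (edgeR adjusted p 0.0895). Upper-quartile scaling called it at -0.57. The ID named cdk4, the kinase that binds cyclin D, was scarce, with 73 to 131 counts per library and 3.34 to 4.26 TPM as group means. Its log2 fold change of 0.38 had a 95% interval of -0.31 to 1.07. The 2 IDs named CCND2, either of which may be ccnd2a, differed in level. ENSDARG00000051748 had 40.4 and 34.2 CPM against 80.9 and 80.3 CPM and was called lower (log2 change -1.11, SE 0.17, edgeR adjusted p 0.00243). It was a larger decrease than that of ccnd1 in the estimate, but their intervals overlapped (-1.50 to -0.72 and -1.19 to -0.38). ENSDARG00000070408 had 53 to 152 counts per library, and its groups overlapped (-0.53, edgeR adjusted p 0.393).

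The 15 mitotic IDs had a median log2 fold change of -0.03. By edgeR 0 of the 15 were called at an adjusted p under 0.05, and 0 had an unadjusted p under 0.05. Over all 19084 genes tested, 8.07% were called lower, 9.02% were called higher and 5760 had an unadjusted p under 0.05. DESeq2 and both limma fits also called 0 of the 15. Fold changes ran from -0.40 to 0.25, and every one of the 15 intervals lay between -0.82 and 0.69, so a 2-fold difference in either direction lay outside each interval. The same held for 13 of the 21 replication IDs and for 6683 of the 9173 genes of at least 10 CPM. Several mitotic intervals, such as that of ccna2 (-0.72 to 0.03), included the replication median of -0.45. Positive and negative libraries overlapped for 8 of the 15. Positive values were all lower for 5 and all higher for 2, aurka and aurkb. Of all 19084 genes tested, 7967 overlapped, 5789 had all positive values lower and 5328 had all higher. The lowest count of a mitotic gene in any library was 941.

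The kinase genes that drive mitosis were near 0. For cdk1, the kinase of cyclins A and B, the libraries had 264 and 232 CPM in positive and 224 and 268 CPM in negative cells, and the groups overlapped. Its log2 change was 0.01 (95% interval -0.40 to 0.42). The polo-like kinase gene plk1 had -0.14 (-0.53 to 0.25), the spindle pole kinase gene aurka 0.14 (-0.23 to 0.51) and the gene of the centromere kinase aurkb 0.25 (-0.19 to 0.69). The aurkb value came mostly from positive replicate 1, at 206 CPM, with the other 3 libraries between 150 and 153 CPM.

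Genes of the spindle checkpoint and of chromosome segregation were also close to 0. The checkpoint genes bub1, bub1bb and mad2l1 had log2 fold changes of 0.06, 0.07 and -0.13, and cdc20, the activator of the anaphase-promoting complex, had -0.01 (95% interval -0.39 to 0.36). Topoisomerase II, top2a, had 274 and 233 CPM in positive and 265 and 234 CPM in negative libraries, and a change of 0.02. The spindle motor gene kif11 had -0.03. The gene birc5a, whose product survivin is a partner of Aurora B, had -0.10.

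The mitotic cyclins and mki67, a gene widely used as a marker of dividing cells, had the lowest values of this group. The positive libraries had 221 and 219 CPM of ccna2 and the negative ones 280 and 278 CPM, a log2 change of -0.34 (95% interval -0.72 to 0.03, edgeR adjusted p 0.203). The genes ccnb1 and ccnb2 had -0.34 and -0.40 (edgeR adjusted p 0.205 and 0.195). The value of mki67 was -0.28 (455 and 449 CPM against 558 and 539 CPM, edgeR adjusted p 0.322). The groups did not overlap in any of these 4 genes, and none passed the test. All positive values were lower in 5 of the 15 mitotic IDs, near the 30.3% of all genes tested. With the trend on transcript length removed, ccna2 was called at -0.53.

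Of the 2 inhibitor IDs counted, 1 was called lower, where 8.07% of all genes tested were. The 2 IDs named CDKN1B, described below, are not in this count and were higher in both positive libraries. The gene cdkn1ca, whose mammalian counterpart encodes p57, had 97.4 and 111 CPM in positive and 251 and 249 CPM in negative libraries. It was the largest decrease among the 43 IDs, at a log2 change of -1.26 (95% interval -1.65 to -0.87, edgeR adjusted p 0.00120, SE 0.17), or 41.7% of the negative level. It was called under each alternative, including without each library in turn, with values from -1.36 to -1.14. In TPM it stood at 80.9 ± 11.8 in positive and 204 ± 19.3 in negative cells (SD, n = 2 each).

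The gene cdkn1a, which encodes p21 and is a target of p53, had overlapping groups. Its libraries had 17.7 and 14.1 CPM in positive and 16.9 and 16.7 CPM in negative cells, and the log2 change was -0.08 (95% interval -0.55 to 0.38, edgeR adjusted p 0.832). The 2 IDs named CDKN1B, the gene of p27 and the name that covers cdkn1ba, were higher in both positive libraries but did not pass. ENSDARG00000054271 had 140 and 144 CPM against 105 and 125 CPM (log2 fold change 0.30, edgeR adjusted p 0.284). ENSDARG00000029018 had 46 to 138 counts per library and a change of 0.91 (edgeR unadjusted p 0.0434, edgeR adjusted p 0.150).

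**Figure D3:**
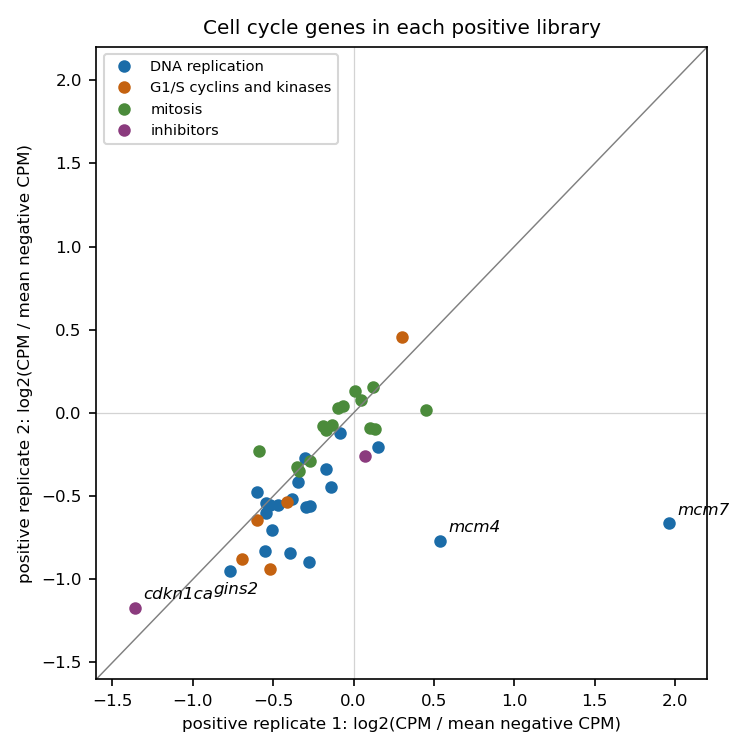
Each point is a matched gene ID, placed by its log2 ratio to the mean negative CPM in positive replicate 1 (horizontal) and positive replicate 2 (vertical). Points on the diagonal had equal values in both. Most replication genes lie below and left of 0, and mcm7 and mcm4 lie far right of the diagonal.

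Levels summed over each class were compared in TPM. The replication IDs summed to 3796 and 3470 TPM in the positive libraries and 5313 and 4786 TPM in the negative ones. The mitotic IDs summed to 1507 and 1594 TPM against 1740 and 1601 TPM. The ratio of the replication sum to the mitotic sum was 2.52 and 2.18 in positive and 3.05 and 2.99 in negative libraries. The groups did not overlap in this ratio. The ratio was not tested, and the smallest p of an exact two-sided permutation test of 2 libraries against 2 is 0.333. Without mcm4 and mcm7 the replication sums were 3484 and 3394 TPM against 5165 and 4689 TPM. The gene pcna alone made up 22.1% to 27.1% of the replication sum.

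Other cell cycle genes were described from 6 lists with 142 symbols, of which 121 were matched to 122 IDs. Of these IDs 120 were tested, 15 were called lower and 1 higher. Over all genes tested, 8.07% were called lower, 9.02% were called higher, and 30.3% had each positive library below each negative one. Genes of origin licensing and firing had 1 of 19 IDs called lower and a median log2 fold change of -0.34. Each positive library lay below each negative one in 14 of the 19. The gene called was orc5, a subunit of the origin recognition complex, with 21.9 and 16.1 CPM against 38.1 and 33.9 CPM (-0.93, SE 0.21, edgeR adjusted p 0.0150). The fits without negative replicate 1 and without negative replicate 2 did not call it.

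Genes of polymerases, clamp loading, nucleotide supply and chromatin assembly were lower in each of the 22 estimates. Of the 22, 7 were called lower, the median log2 fold change was -0.43, and each positive library lay below each negative one in 18. Over all genes tested, 8.07% were called lower and 30.3% had that arrangement of libraries. The thymidine kinase gene tk1 had 22.5 and 25.4 CPM against 52.2 and 39.1 CPM (-0.93, SE 0.20, edgeR adjusted p 0.0121). The RPA subunit gene rpa3 had -0.70 (edgeR adjusted p 0.0415). The call of rpa3 was lost in 3 alternatives and that of tk1 in 2. The polymerase delta subunit gene pold3 and dhfr, the gene of dihydrofolate reductase, had the smallest called changes at -0.57 and -0.56 (edgeR adjusted p 0.0474 and 0.0459). These were near the threshold, and 8 alternatives for pold3 and 9 for dhfr did not call them.

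**Figure D4:**
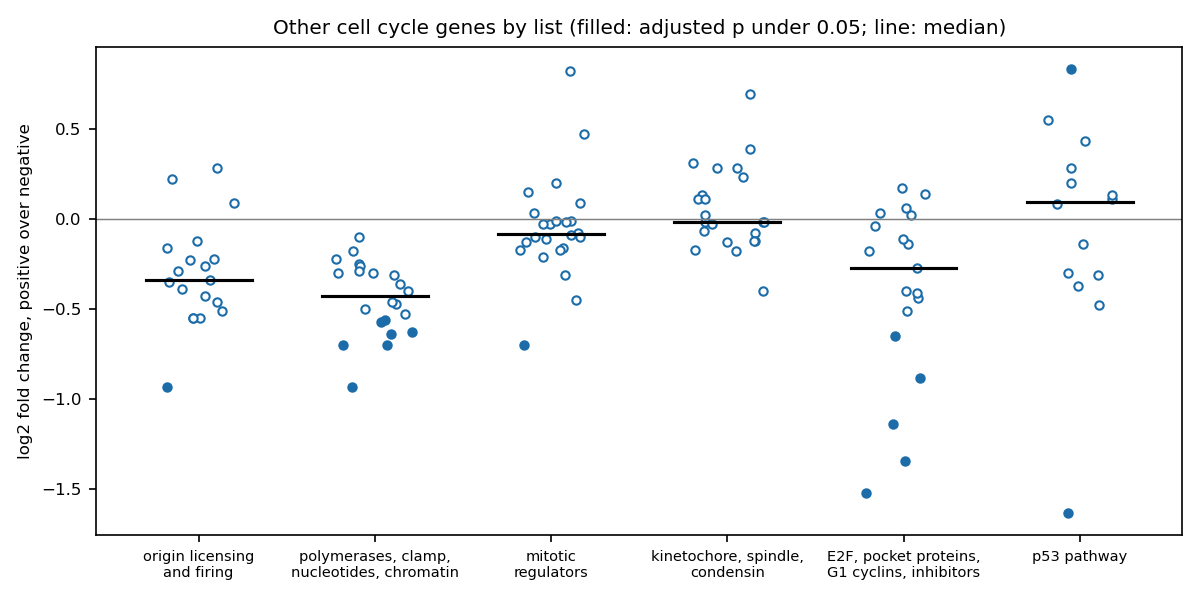
Log2 fold change, positive over negative, of 120 other cell cycle genes in 6 lists. Each point is a gene ID, filled where the adjusted p was under 0.05, and the black line is the median of the list. The lists of origin licensing and of polymerases have medians of -0.34 and -0.43, and those of mitotic regulators and of the kinetochore and spindle have -0.08 and -0.02.

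Few of the further mitotic genes were called, where 8.07% of all genes tested were called lower and 9.02% higher. Of 24 IDs of mitotic regulators, 1 was called lower and 0 higher, with a median of -0.08, and of 22 IDs of the kinetochore, spindle and condensin edgeR called 0, with a median of -0.02. At an unadjusted p under 0.05 there were 3 IDs in that last list, 1 lower and the others higher. Of all 19084 genes tested, 5760 reached that level. The DESeq2 Wald test called 1 ID of that list higher, as did edgeR without the low-count filter. The regulator called was pttg1, the gene of securin, with 12.2 and 12.7 CPM against 18.3 and 22.2 CPM (-0.70, SE 0.20, edgeR adjusted p 0.0459). In 6 of the alternatives this gene did not pass.

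Of the E2F, pocket protein, G1 cyclin and inhibitor list, 5 of 19 tested IDs were called lower and 0 higher. The shares over all genes tested were 8.07% and 9.02%. The gene tfdp2, which encodes a dimer partner of E2F factors, had 40.8 and 34.9 CPM in positive and 103 and 88.6 CPM in negative libraries. Its log2 change of -1.34 (edgeR adjusted p 0.00113, SE 0.18) was called in each alternative. The gene e2f2 had -0.88 (edgeR adjusted p 0.0143), and cdkn1cb, a paralogue of cdkn1ca, had -0.65 (25.3 and 20.9 CPM against 35.3 and 37.0 CPM, edgeR adjusted p 0.0415). The call of cdkn1cb was lost in 7 alternatives and that of e2f2 in 3.

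In the p53 pathway list 1 of 14 IDs was called higher and 1 lower, shares close to the 9.02% and 8.07% of all genes tested. Both were genes of BH3-only proteins that promote apoptosis. The gene pmaip1, also called noxa, had 35.2 and 48.7 CPM in positive and 101 and 159 CPM in negative libraries, a log2 change of -1.63 (edgeR adjusted p 0.00249, SE 0.25) that was called in each alternative. The gene bbc3, also called puma, had 22.1 and 24.2 CPM against 12.4 and 13.6 CPM (0.83, SE 0.19, edgeR adjusted p 0.0179). Neither limma fit called it, nor did the fits without negative replicate 1 or without negative replicate 2. Most of the 16 calls in the 6 lists were lost with either negative library left out, and so were many calls over all genes tested.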

How the data were processed

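Expression was measured by RNA sequencing of 2 ZsYellow-positive and 2 ZsYellow-negative samples. Per the labels' protocols, about 50 ng of RNA was primed on the poly(A) tail and made into libraries by tagmentation. Per the submitters' processing notes the tools included Salmon 1.2.1, BWA 0.7.12-r1039 and bedtools 2.25.0.64. The sources used here do not give the role of each tool, the annotation or the strand setting, so no coordinates or sequences are printed. The authors deposited whole-number estimated counts and log2(TPM + 1) per gene. The deposited counts were already whole and were not rounded again.

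Counts were tested across all genes with edgeR 4.0.16 (quasi-likelihood F test, TMM, filterByExpr with a minimum count of 10) in R 4.3.3, with Benjamini-Hochberg adjustment over 19084 genes. CPM was computed from TMM-scaled library sizes. Each SE was obtained from the fold change and the root of F, and intervals use the t distribution of the fit. Limma 3.58.1, DESeq2 1.42.0 and other settings were alternatives. The tools were also run on simulated counts, where limma used CPM rather than TPM. Each simulated gene was given the spread usual for its level, so genes with unusually unequal replicates were not represented. Nothing says that the replicates came from separate groups of embryos, so p-values measure the spread between these libraries, which may be technical. No molecular identifiers are named in the labels.

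Names came from a table of Ensembl IDs that named 23599 of 25873 IDs. Synonyms came from a RefSeq table of assembly GRCz12tu. Members, lists and tests were chosen with earlier results of these data known. All members are named, and from each other list the 2 top and 2 bottom called genes by fold change, with a mean of at least 10 CPM. Of the 142 symbols in those lists, 21 are not analysed here.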

Additional observations from a re-analysis of the deposited data

How the results depend on the processing

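Of 559 values of single members under 13 alternative fits, 479 kept direction and call, 18 gained a call, 15 lost one and 47 changed sign. Of these 47, only mcm4 and mcm7 without positive replicate 1 were called, and mcm7 went from 1.18 to -0.64 there. Upper-quartile factors moved the median of all genes from -0.01 to -0.11, and called 11 members lower, 6 of them in replication. Of all genes called there, 44.5% were higher, against 52.8% in the main fit. Such percentages, here and for the fits below, split the calls by direction and do not give the share of all genes called. The counts of members called in these fits stand without that share. With these factors the class medians moved about as much as that of all genes, mitosis from -0.03 to -0.13 and inhibitors from -0.67 to -0.77. Relative to the median of all genes they therefore changed little. The inhibitor median, -0.67 in the main fit, is the midpoint of only 2 IDs that lay far apart. These were cdkn1ca at -1.26 and cdkn1a at -0.08, and the IDs named CDKN1B are not in it. The DESeq2 Wald test called 5 replication members lower, and 55.9% of all its calls were higher. With the trend on transcript length removed, 10 members were lower, 5 in replication and 1 in mitosis, and the inhibitor median was -0.57. Of all genes called in that fit, 51.2% were higher. Limma gave medians of -0.10 for mitosis and, with 1 or 0.1 added to TPM, -0.71 or -0.72 for inhibitors. A threshold of 0.01 left 966 genes higher and 784 genes lower in all, with 2 members lower (gins2 and cdkn1ca), 1 in replication and 0 in G1/S.

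Leaving out each library gave 852 to 2446 genes higher, 747 to 1846 lower, 0 to 1 member higher, 1 to 11 lower, 0 to 1 replication member higher, 0 to 7 lower, 0 to 3 G1/S members lower and a mitosis median from -0.09 to -0.05. Log2 fold changes then ran from -0.74 to 0.54 for mcm4, -0.64 to 1.97 for mcm7, -0.36 to 0.43 for mcm6 (ENSDARG00000033231), -0.27 to 0.10 for rrm2 (ENSDARG00000020711), -0.12 to 0.15 for cdk1, -0.21 to 0.42 for bub1, -0.02 to 0.18 for bub1bb, -0.29 to 0.05 for mad2l1, -0.06 to 0.07 for cdc20, -0.07 to 0.14 for top2a, -0.22 to 0.03 for birc5a, -0.23 to 0.21 for kif11 and -0.23 to 0.07 for cdkn1a.

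Other sign changes, none called, were as follows. Upper-quartile factors gave -0.07 for mcm4, -0.09 for cdk1, -0.03 for bub1 and bub1bb and -0.08 for top2a. Limma gave -0.13 for mcm4, -0.01 for cdk1, -0.06 for bub1, 0.01 or 0.02 for cdc20, -0.03 or -0.04 for top2a and 0.00 for mcm6 (ENSDARG00000033231). Without the length trend mcm4 was -0.03, bub1bb -0.13, mad2l1 0.02, cdc20 0.02, top2a -0.12 and cdkn1a 0.06. With DESeq2 factors or its Wald test cdc20 was 0.00. Without the low-count filter mcm6 (ENSDARG00000033231) and cdc20 were 0.01.

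The replicate numbers are shared between the groups, but the correlation of their replicate differences was -0.0923 over genes, and no label says that a number marks a shared sort. With the replicate block 1762 genes were higher and 1561 lower. It lost the call of ccne1 (-0.62) and changed the sign of mcm4 to -0.11 and mcm6 (ENSDARG00000033231) to 0.01, none of them called. The cause of these movements was not tested. Genes such as cdk4, with 73 to 131 counts, are limited by depth.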

Other observations

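Some names of the other cell cycle lists belonged to 2 IDs that could not be told apart by paralogue, and were left out of the counts above. Of the IDs named MYC, a gene that promotes growth and division, ENSDARG00000045695 had 23.5 and 17.1 CPM in positive and 55.6 and 54.9 CPM in negative libraries. It was called lower (log2 fold change -1.44, edgeR adjusted p 0.00134). The more abundant ENSDARG00000007241 had 215 and 216 CPM against 230 and 253 CPM and was not called (-0.16, edgeR adjusted p 0.575). Of the growth arrest and stress genes named GADD45B, ENSDARG00000027744 was called higher, with 288 and 228 CPM against 100 and 121 CPM (1.22, edgeR adjusted p 0.00278), and ENSDARG00000013576 was not called (-0.05). Of the histone chaperone IDs named ASF1B, ENSDARG00000043713 had 49.1 and 51.2 CPM against 84.5 and 78.8 CPM and was called lower (-0.70, edgeR adjusted p 0.0182), and ENSDARG00000101037 was not called (-0.53, edgeR adjusted p 0.0799). Of the GADD45A IDs, ENSDARG00000104571 was called higher (0.68, edgeR adjusted p 0.0318) and ENSDARG00000043581 lower (-0.93, edgeR adjusted p 0.0484).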
